A study of Zea mays with 10 samples.

Results

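The 1% of windows of the maize (Zea mays) genome with the most small RNA reads were examined, called members here. Any library had reads in 20584 windows of 100 kb, and 20378 of them lay outside the set. Members were chosen by their mean level over all 10 libraries, in counts per 1000000 reads of the library (CPM), so their high level and their share of the reads are descriptions and were not tested. Differences between tissues and lines were not part of the choice, although a window very high in 1 tissue or line could enter through that tissue or line alone.

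Plants carry several classes of small RNA. MicroRNAs are cut by Dicer-like enzymes from hairpin transcripts of single genes and guide Argonaute proteins to matching messenger RNAs. Small interfering RNAs come from double-stranded RNA, and the heterochromatic ones, made mostly from transposons by RNA polymerase IV and its partner RNA-dependent RNA polymerase, direct DNA methylation. A single abundant microRNA precursor, a phased siRNA locus or a piece of ribosomal or transfer RNA can fill a window with reads, while transposon siRNAs are spread over many windows. The counts do not separate these classes, since neither read length nor sequence was given with them, and no genome of the build behind the windows was used here. Windows are therefore named by position, and none is assigned to a gene, exon or intron.

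The series asks how copy number alterations act on small RNA. Libraries were made from 14-day-old seedlings, 1 library for each line and tissue. Both tissues came from B73 (the inbred line of the reference genome) and from id1, id4 and 9d9a, whose genotypes are P1-wwid1, P1-wwid4 and P1-vv9d9a in that order. Leaf alone came from 714 (P1-ww714) and 714H (P1-ww714/B73, the 714 allele over B73). The names refer to alleles of p1 on chromosome 1, which encodes a Myb transcription factor that turns on red pigment in the ear and pericarp. The titles call the tissue leaf where the tissue label reads seedling, and window counts hold no marker genes with which to check it. Plants were not said to be separate between libraries, so lines served as replicates of a tissue, and p-values take their error from how these libraries vary, which may be technical. In whole tissue, fewer cells of a type and less RNA per cell cannot be told apart.

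Library totals ran from 8472011 to 18396214 reads, the deepest being B73 leaf. The median member held 2826 to 6100 reads per library, which gives a relative counting error of at most 1.88%, and the lowest count of any member in any library was 14. At the limit of the choice, the windows just inside had mean levels of 260 CPM (7.6 Mb on chromosome 3) and 258.20 CPM (258.6 Mb on chromosome 1). Those just outside had 258.01 CPM (54.5 Mb on chromosome 2) and 257.45 CPM (182.6 Mb on chromosome 2), so the limit fell within a continuous range.

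The share of reads in the members was even in leaf and uneven in root. Among leaf libraries B73 had 13.8%, id1 14.6%, id4 13.4%, 9d9a 14.0%, 714 13.2% and 714H 14.6%. Among root libraries B73 had 9.32%, id1 10.4%, id4 12.7% and 9d9a 14.4%. All exact 95% binomial intervals, which cover counting error only, reached at most 0.0234 percentage points from the share. The mean over lines was 13.9% ± 0.610 in leaf (SD, n = 6) and 11.7% ± 2.29 in root (SD, n = 4). The ranges overlapped, because 9d9a root lay within the leaf range while B73, id1 and id4 root lay below every leaf library. The most read window alone held 1.68% to 2.61% of the reads in leaf and 0.542% to 1.66% in root.

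**Figure D1:**
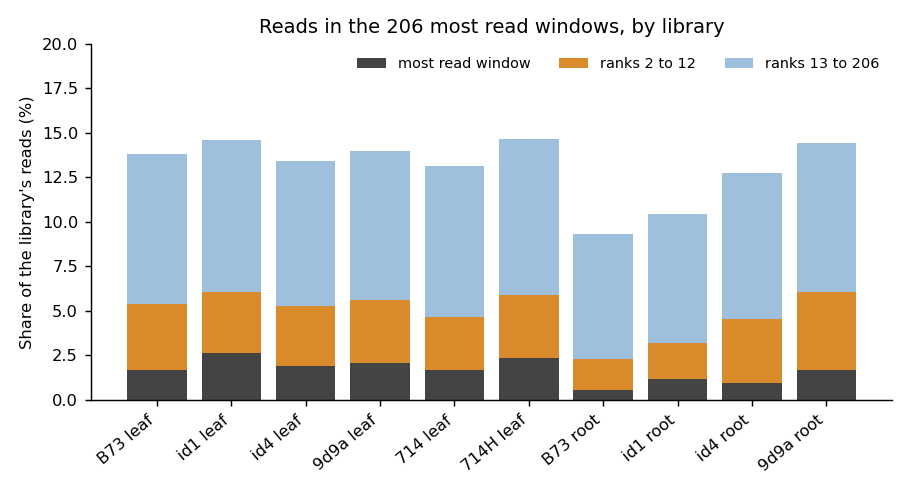
Share of each library's reads (%) in the most read window, in ranks 2 to 12 and in the ranks from 13 on, for the 6 leaf and 4 root libraries. The full bars reach 13.2% to 14.6% in leaf and 9.32% to 14.4% in root, and the lower shares of B73 and id1 root lie mostly in ranks 1 to 12.

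Most of the unevenness in root lay in the 12 windows with the highest means. Together they held 4.69% to 6.07% of the reads in leaf. In root they held 2.31% in B73, 3.22% in id1, 4.55% in id4 and 6.07% in 9d9a. The other 194 windows held 8.12% to 8.73% in leaf and 7.01%, 7.22%, 8.17% and 8.35% in root, in the same order of lines. Among the root libraries each of the 12 was highest in 9d9a (9 windows) or id4 (3) and lowest in B73 (8) or id1 (4). Over all members the highest root library was B73 in 60, id1 in 42, id4 in 43 and 9d9a in 61, so that this order did not run through the whole set. With 1 library per line and tissue, a difference of line and a difference of library cannot be told apart.

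The set was dominated by its first window. The window at 96.1 to 96.2 Mb on chromosome 6 had a lowest, median and highest level of 16793, 19985 and 26127 CPM in leaf. In root it had 5424 CPM in B73, 11863 in id1, 9618 in id4 and 16598 in 9d9a. Every root library lay below every leaf library. The log2 difference of leaf over root was 0.90 ± 0.32 (SE) in edgeR's quasi-likelihood test over the 4 lines with both tissues, and the adjusted p of 0.0644 missed the threshold of 0.05. It passed with line as a block (log2 1.0, adjusted p = 0.0135), without 9d9a (1.20, 0.0367), in DESeq2 (0.89, 0.0477), with library totals (0.93, 0.0472) and with totals taken outside the members (0.96, 0.0456). Over all alternatives the adjusted p ran from 0.0135 to 0.278.

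The next window in rank, at 195.0 Mb on chromosome 4, varied less, with 4274, 4588 and 5775 CPM (lowest, median, highest) in leaf. Its root levels were 2665 CPM in B73, 3182 in id1, 3975 in id4 and 4803 in 9d9a, which overlapped the leaf range only in 9d9a. At 183.5 Mb on chromosome 5, the third in rank, the leaf libraries of B73, id1, id4 and 9d9a held 7186, 7073, 7646 and 6153 CPM, with 3051 in 714 and 4316 in 714H. Root held 93.6 CPM in B73, 201 in id1, 1058 in id4 and 94.8 in 9d9a, so no root library came near the leaf libraries.

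A window at 46.8 Mb on chromosome 1, the fourth in rank, ran the other way in part of the root libraries. It held 1046, 1522 and 2013 CPM (lowest, median, highest) in leaf. In root B73 had 1570 CPM and id1 2037, close to leaf, while id4 had 8130 and 9d9a 11790. Its rank thus rested on the latter libraries. The log2 of leaf over root was -1.83 ± 0.70 (SE, edgeR adjusted p = 0.108), and DESeq2 alone called it (-1.84, adjusted p = 0.0174; 0.0174 to 0.357 over all alternatives).

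Steadier levels were seen at 158.3 Mb on chromosome 8, the sixth in rank. There leaf held 2625, 3053 and 3464 CPM (lowest, median, highest), and root 3004 CPM in B73, 3477 in id1, 3596 in id4 and 3037 in 9d9a. The tissues overlapped, and the difference was small against its error (log2 -0.08 ± 0.12 SE). At 144.2 Mb on chromosome 10 the line id1 stood low in both tissues. It had 1551 CPM in leaf, where the other lines had 3517 to 4919, and 530 in root, where B73 had 1281, id4 3392 and 9d9a 3059. Over both tissues the difference of id1 from B73 was not called (log2 -1.51 ± 0.40 SE, edgeR adjusted p = 0.0895). The window's leaf to root difference was not called without line as a block (log2 0.84, adjusted p = 0.417). With line as a block it was called (1.06, adjusted p = 0.0226).

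The remaining 6 of the first 12 lay at 145.6 Mb on chromosome 10, 299.6 and 181.2 Mb on chromosome 1, 134.2 Mb on chromosome 9, 204.7 Mb on chromosome 5 and 229.9 Mb on chromosome 3. Their medians in leaf ran from 1262 CPM, at 204.7 Mb on chromosome 5, to 3739 CPM, at 145.6 Mb on chromosome 10. Root at 134.2 Mb on chromosome 9 held 744 CPM in B73 and 839 in id1, against 2733 in id4 and 3832 in 9d9a. The id4 and 9d9a levels were in or above the leaf range of 2507 to 3263 CPM, and the others far below it. Of the 12 windows, edgeR called 1 higher in leaf (183.5 Mb on chromosome 5) and 1 higher in root (204.7 Mb on chromosome 5). With line as a block it called 4 higher in leaf, the others being 96.1 Mb on chromosome 6, 144.2 Mb on chromosome 10 and 229.9 Mb on chromosome 3 (log2 0.47, adjusted p = 0.0427), and the same 1 higher in root. The ratio of the highest to the lowest root library had a median of 2.42 over the 12, and that of the same 4 lines in leaf 1.24. Over all members these medians were 1.30 in root and 1.13 in leaf.

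**Figure D2:**
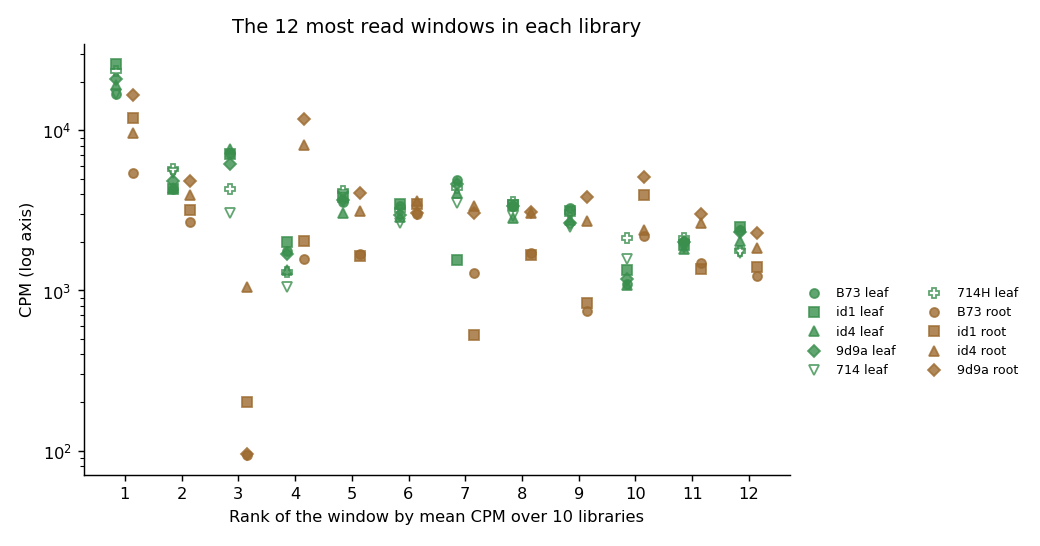
Level in CPM (log axis) of the 12 windows with the highest mean, by rank, with 1 point per library (leaf in green, root in brown, 1 marker shape per line, 714 and 714H open). Root points of B73 and id1 sit below those of id4 and 9d9a in most ranks, and at rank 3 root lies below leaf in all lines (93.6 to 1058 CPM against 3051 to 7646).

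High levels were mostly confined to single windows. Of the members, 193 had no other member beside them, and the other 13 formed 6 runs, the longest of 3 windows at 172.0 to 172.3 Mb on chromosome 8. The median member had 5.94 times the mean level of the windows adjacent to it, 191 members had over 2 times and 61 over 10 times. At 96.1 Mb on chromosome 6 the ratio was 449, at 181.2 Mb on chromosome 1 it was 316 and at 46.8 Mb on chromosome 1 it was 204. The 396 adjacent windows that were not members had a median of 56.5 CPM, against 27.3 CPM for all 20378 windows outside the set, a ratio of 2.07. The ratio lay between 1.92 and 2.16 in each of the 10 libraries.

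The members lay toward the chromosome ends. Within 20 Mb of an end were 100 members, or 48.5%, against 19.4% of all windows. An equal number of windows next in rank had the same share, 48.5%, so that this position was not particular to the most read ones. By chromosome, members made up 0.414% of the windows of chromosome 4 and 1.60% of those of chromosome 9. Chromosome 1 held the most (28), and chromosome 6 held the highest summed mean level, 25469 CPM in 20 windows, of which the first window gave 16661 CPM. No test was made of these positions.

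The ranking was partly shared between libraries. An equal number of windows with the most reads in a single library included 164 to 178 of the members in leaf and 153 to 171 in root, and 93 windows were in that list of every library. Ranked by the leaf mean alone, 181 members would have been chosen, and by the root mean alone 172. Both rankings held 147 members, the leaf ranking alone 34 and the root ranking alone 25.

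The comparison of leaf with root asks which of the windows differed between tissues in all lines. Of the members, 26 were higher in leaf and 35 higher in root at an adjusted p under 0.05 (edgeR), beside 11.3% and 13.9% of all 20215 windows tested (25.3% in either direction). These are 12.6% and 17.0% of the members, shares near those of all windows. The median log2 of leaf over root was -0.02 in the members and 0.02 in all windows, and the median absolute log2 was 0.213 in both. Of as many windows next in rank, 27 were higher in leaf and 50 in root. The main fit has no term for line, so it does not pair leaf and root of a line. With line as a block 33 members were higher in leaf and 50 higher in root. All 6 leaf libraries lay above all 4 root libraries in 32 members (11.3% of all windows) and below them in 24 (11.2%).

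Which direction held more members was not stable. Toward leaf there were 33, and toward root 29, when libraries were scaled to their totals outside the members, and 32 and 28 when the windows were chosen by the median over libraries. With library totals the numbers were 28 and 32, and with DESeq2's size factors 25 and 35. Over 2-fold differences were called toward leaf in 11 members, beside 0.727% of all windows, and toward root in 3, beside 0.856%. Members that entered by the leaf ranking alone supplied 16 of the 26 higher in leaf, and those by the root ranking alone 12 of the 35 higher in root. A window high in 1 tissue could enter through that tissue, so these counts are no evidence of a direction. Without B73 the counts were 16 and 22, without id1 15 and 21, and without 9d9a 17 were higher in leaf.

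Of the 10 windows farthest between tissues, 8 entered by the ranking of 1 tissue alone, so their differences are descriptions and are given with no p. The exceptions are 183.5 and 204.7 Mb, both on chromosome 5. At 183.5 Mb id4 alone among the root libraries lies above the limit of the choice, so that difference is a description too. The widest difference was at 82.4 Mb on chromosome 10, which entered through leaf. There leaf held 488, 507 and 585 CPM (lowest, median, highest). Root held 1.97 CPM in B73, 4.0 in id1, 5.49 in id4 and 1.24 in 9d9a, the last on 14 reads. Tissues were separated by a factor of over 10 in every line, and the log2 difference was 7.31 ± 0.41 (SE). At 183.5 Mb on chromosome 5 it was 4.26 ± 0.96. That window left the 26 called higher in leaf without B73 (log2 3.92), id1 (4.05) or 9d9a (4.0).

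The other windows farthest toward leaf, all entering through leaf, were at 3.0 Mb on chromosome 9, 4.3 Mb on chromosome 7 and 218.5 Mb on chromosome 2. At 4.3 Mb on chromosome 7 leaf held 388, 531 and 627 CPM (lowest, median, highest) and root 123 CPM in B73, 116 in id1, 101 in id4 and 73.2 in 9d9a. The levels did not overlap, and the log2 difference was 2.15 ± 0.17 (SE). At 3.0 Mb on chromosome 9 the log2 difference was 2.22 ± 0.38, and root held 49.1 CPM in B73, 66.7 in id1, 155 in id4 and 108 in 9d9a against 298 to 502 in leaf. At 218.5 Mb on chromosome 2 root held 107 CPM in B73, 201 in id1, 424 in id4 and 216 in 9d9a against 892 to 1039 in leaf. The difference there was 2.03 ± 0.40. Both count among the 26, and without 9d9a both left that count (log2 2.26 and 1.99), the second also without id1 (1.98).

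Toward root, the widest difference was at 214.5 Mb on chromosome 1, which entered through root. Root held 343 CPM in B73, 581 in id1, 961 in id4 and 879 in 9d9a, and leaf 83.9, 116 and 169 (lowest, median, highest). Every root library was over 2 times the highest leaf library, with a log2 of leaf over root of -2.75 ± 0.36 (SE). At 204.7 Mb on chromosome 5, the tenth in rank, root held 2182 CPM in B73, 3967 in id1, 2382 in id4 and 5116 in 9d9a. Leaf held 1088, 1262 and 2137 CPM there, the highest in 714H, just under the lowest root library, and the log2 difference was -1.57 ± 0.28 (edgeR adjusted p = 0.00465).

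Smaller but more even differences, in windows that entered through root, were seen at 113.0 and 135.6 Mb on chromosome 10 and 198.9 Mb on chromosome 1. At 135.6 Mb on chromosome 10 leaf held 214, 222 and 241 CPM (lowest, median, highest) and root 422 CPM in B73, 408 in id1, 353 in id4 and 343 in 9d9a. The log2 difference was -0.83 ± 0.07 (SE). It was -1.56 ± 0.13 at 113.0 Mb on chromosome 10 and -0.92 ± 0.09 at 198.9 Mb on chromosome 1.

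**Figure D3:**
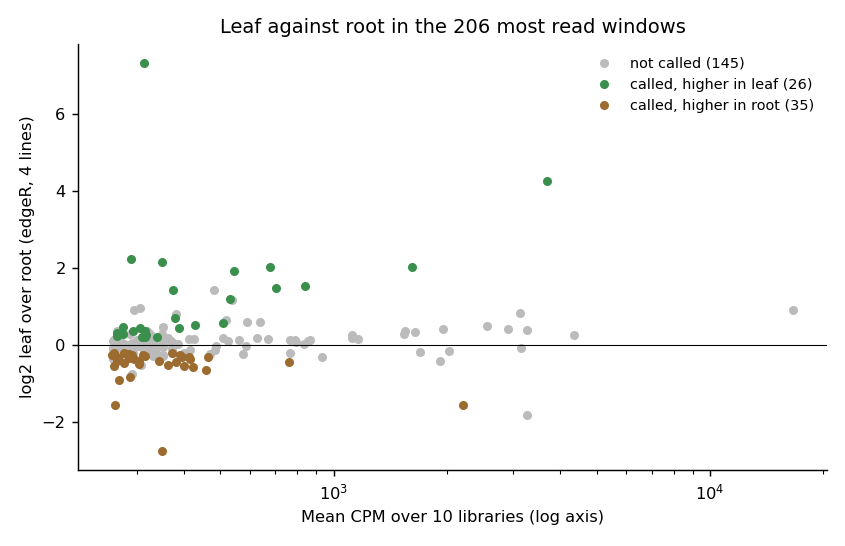
Log2 of leaf over root (edgeR, 4 lines with both tissues) against the mean level in CPM (log axis) for the members, with the 26 called higher in leaf in green, the 35 called higher in root in brown and the others in grey. The farthest points are the window at log2 7.31, near the lower end of the range of levels, and the third in rank at 4.26, while most points lie close to 0.

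Each of the lines id1, id4 and 9d9a was set against B73 to find windows that differed in leaf and root alike, with 2 libraries per line and 3 residual degrees of freedom. The comparisons share the B73 libraries. Few windows were called, in the members as over all windows. In id1, 6 rose and 4 fell, beside 1.94% and 3.58% of all 20386 windows tested (10 in all, beside 5.51%). In id4, 3 rose and 6 fell, beside 1.42% and 3.09% (9 in all, beside 4.51%). In 9d9a, 3 rose and 3 fell, beside 1.54% and 3.08% (6 in all, beside 4.61%), and these depended on the tool, the scaling and the other lines. DESeq2 gave 9 and 4, library totals 2 and 4, totals outside the members or DESeq2's size factors 5 and 3, and the fit without id1 5 and 3. The members' shares were 2.91% and 1.94% in id1, 1.46% and 2.91% in id4 and 1.46% and 1.46% in 9d9a. Falls in id1 and 9d9a were below the share of all windows and rises in id1 above it, on 3 to 6 windows each. The other shares were near those of all windows. Over the members, id1, id4 and 9d9a had median absolute log2 changes of 0.0828, 0.135 and 0.149, and over all windows 0.124, 0.135 and 0.138.

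In id1 and id4 the window that rose most was at 48.1 Mb on chromosome 1. B73 held 24.5 CPM there in leaf and 20.4 in root, and 9d9a 34.0 and 24.4. The other lines held 1277 CPM (id1), 980 (id4), 1423 (714) and 596 (714H) in leaf, and id1 had 502 and id4 479 in root. The libraries fell into a low level in B73 and 9d9a and a high one elsewhere, so the window was a member only through the lines that carry the high level, and its rise is a description. For id1 the log2 change came to 5.19 ± 0.32 (SE), and for id4 to 4.94 ± 0.32.

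At 50.1 Mb on chromosome 1, id1 was high and id4 was not. B73 held 88.7 CPM in leaf and 57.4 in root, id4 73.7 and 57.5 and 9d9a 89.0 and 55.9. The id1 libraries held 788 and 366, and in leaf 714 had 933 and 714H 552. The log2 change in id1 was 2.93 ± 0.16 (SE), in a window that would not have been chosen without the id1 libraries. The same holds at 13.6 Mb on chromosome 5, without id1 or without id4, and both are descriptions. At 13.6 Mb on chromosome 5 levels in B73 were 185 CPM in leaf and 240 in root. They were higher in id1, with 388 and 597 (log2 1.20 ± 0.11), and less so in id4, with 298 and 307 (0.52 ± 0.11). There 9d9a had 184 and 221, and 714 and 714H had 146 and 106 in leaf.

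The widest fall was in id1 at 79.7 Mb on chromosome 1, where leaf and root held 4.39 and 3.64 CPM in place of B73's 366 and 454 (log2 -6.68 ± 0.18 SE). The same window held 235 and 187 CPM in id4 (-0.97 ± 0.12). In 9d9a it held 444 and 402, in 714 501 and in 714H 427, all near or above B73. The id1 and id4 libraries lie under the limit of the choice, so the window entered through the other lines and both falls are descriptions. The other named falls in id1 were to 219 and 212 CPM at 141.5 Mb on chromosome 10, against 433 and 333 in B73, and to 167 and 204 CPM at 222.1 Mb on chromosome 1, against 273 and 361. Their log2 changes were -0.82 ± 0.11 and -0.76 ± 0.11. At both windows the id1 libraries lie under the limit of the choice, so these falls are descriptions as well. In leaf at 141.5 Mb on chromosome 10, the other lines lay between 391 and 439 CPM, all well above id1.

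In the fit over both tissues the named falls in id4 were all under 2-fold. In root alone, id4 was over 2-fold below B73 at 35.3 Mb on chromosome 2 and at 79.7 Mb on chromosome 1. At 35.3 Mb on chromosome 2, id4 leaf and root held 333 and 264 CPM, and those of B73 560 and 570 (log2 -0.94 ± 0.11 SE, edgeR adjusted p = 5.27e-05). It was the lowest library in both tissues. At 30.9 Mb on chromosome 5 it held 284 and 195 CPM against 338 and 331 (-0.52 ± 0.11, adjusted p = 0.00997), again the lowest in both.

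In 9d9a, 3 windows fell, to 41.1 to 92.6 CPM in either tissue. At 234.2 Mb on chromosome 1, 9d9a leaf and root held 74.1 and 41.1 CPM, and those of B73 379 and 346 (log2 -2.65 ± 0.16 SE). At 10.5 Mb on chromosome 7 there were 84.4 and 83.4 against 352 and 690 (-2.51 ± 0.20). At 15.3 Mb on chromosome 7 there were 76.0 and 92.6 against 282 and 383 (-1.93 ± 0.09). The means of these chromosome 7 windows, 291 and 260 CPM, lean on the B73 libraries, the high side of the comparison. Both falls are therefore descriptions. So is the fall at 234.2 Mb on chromosome 1, a window that entered through the other lines, since its 9d9a libraries lie under the limit of the choice. All other lines lay above 9d9a at the 3 windows in each tissue. At 10.5 Mb on chromosome 7, B73 was itself the highest library, with id1 and id4 at 229 and 246 in leaf and 382 and 372 in root.

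Among the smaller rises, some were found in several lines. At 289.5 Mb on chromosome 1, B73 held 179 CPM in leaf and the other 5 lines 285 to 325. In root B73 held 229, id1 298, id4 290 and 9d9a 261. The log2 change was 0.56 ± 0.11 (SE) in id1, 0.57 ± 0.11 in id4 and 0.46 ± 0.11 in 9d9a. The 9d9a call was lost with library totals (log2 0.42). Both B73 libraries lie under the limit of the choice, so the window entered through the other lines and its rises are descriptions. At 291.8 Mb on chromosome 1, B73 and id4 were low in both tissues (231 and 240 CPM in leaf, 242 and 236 in root). There 9d9a held 374 and 376 CPM, a log2 change of 0.71 ± 0.10, and id1 358 and 305 (0.49 ± 0.10). In leaf 714 and 714H held 395 and 377. The B73 and id4 libraries lie under the limit, so this window too entered through the lines with the high level. Its rises are descriptions. At 150.6 Mb on chromosome 6, leaf and root held 805 and 842 CPM in 9d9a and 597 and 444 in B73 (0.72 ± 0.16, edgeR adjusted p = 0.0118). There id1 (841) lay above 9d9a in leaf, and 714 (581) and 714H (474) lay below B73.

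Ratios to B73 in 1 tissue were also counted, since the comparison above tests what leaf and root share. On the scale log2(CPM + 1), 23 members were over 2-fold above B73 in id4 root, beside 0.578% of all windows, and 23 in 9d9a root, beside 0.471%. In id1 root there were 8, beside 0.452%. In leaf there were 1 in id4 (0.35% of all windows), 0 in 9d9a (0.223%) and 4 in id1 (0.437%). A window high in those libraries could enter through them, so nothing is read from the shares. These are ratios of single libraries with no replicate check.

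**Figure D4:**
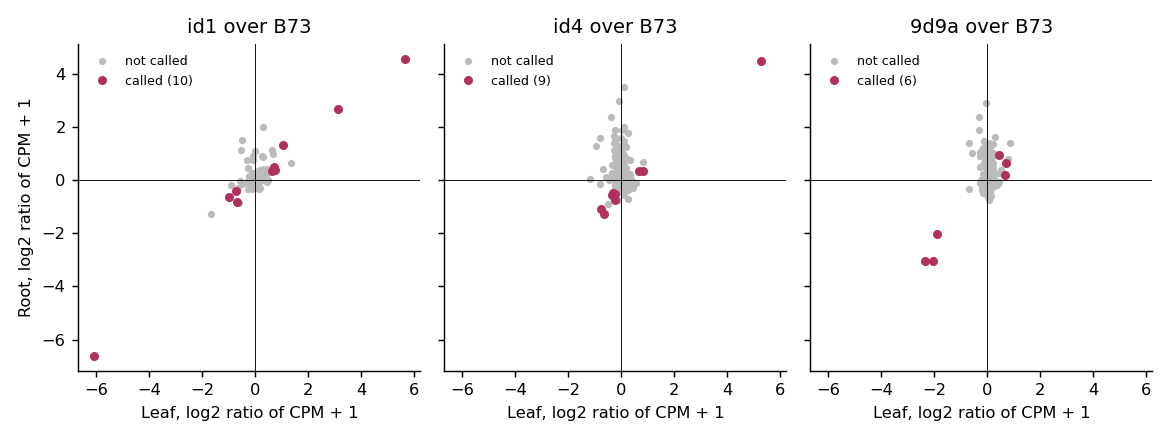
Log2 ratio of CPM + 1 to B73 in leaf (horizontal) and root (vertical) for the members in id1, id4 and 9d9a, with windows called in edgeR in red. Called windows (10 in id1, 9 in id4 and 6 in 9d9a) lie along the diagonal, since the fit tests what leaf and root share. A column of uncalled points with ratios near 0 in leaf and above 0 in root stands in id4 and 9d9a.

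The comparison by copies of the 714 allele covers the 6 leaf libraries. The line 714 has 2 copies and 714H has 1, where B73, id1, id4 and 9d9a have 0. Only those libraries carry the allele, so its dose and the background of the 714 stocks cannot be told apart. Of the members, 2 rose and 9 fell per copy (edgeR, adjusted p under 0.05), beside 0.639% and 1.71% of all 20345 windows tested (2.35% in either direction). Of as many windows next in rank, 4 rose and 9 fell, so the number of falls was not particular to the members. The members' own counts are 0.971% and 4.37% of the set. They depended on single libraries and on the tool, with 0 (24 at an unadjusted p under 0.05 in edgeR) and 3 without B73, 4 and 17 without 714, 6 and 17 without 714H, 4 and 8 with library totals, and 9 and 23 in DESeq2. Without id1, id4 or 9d9a the total was 7 in place of 11.

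The third window in rank, at 183.5 Mb on chromosome 5, fell with the allele from a range of 6153 to 7646 CPM in the 4 lines without it to 4316 in 714H and 3051 in 714. The slope was -0.63 ± 0.07 per copy (log2, SE, edgeR adjusted p = 0.00862) and stayed past the threshold under every alternative run. At 249.0 Mb on chromosome 1 the levels were 377 to 428 CPM without the allele, 212 in 714H and 114 in 714 (-0.92 ± 0.05). Its slope was also called under every alternative run, but 714 and 714H lie under the limit of the choice there. The window thus entered through the lines without the allele, and its fall is a description. At 143.3 Mb on chromosome 4, lines without the allele had 287 to 313 CPM, 714H 104 and 714 84.1, so that 714H lay near 714. That slope of -0.99 ± 0.12 lost its call without B73, id1, id4 or 9d9a (log2 -0.99 to -0.97). The window, at rank 202, entered narrowly and through the lines without the allele, so its fall is a description.

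The 2 windows that rose did so by little. At 155.5 Mb on chromosome 7 the 4 lines without the allele held 394 to 445 CPM, 714H 519 and 714 603 (slope 0.27 ± 0.04 SE, edgeR adjusted p = 0.028). At 7.6 Mb on chromosome 3, the last but 1 in rank, they held 239 to 262, 714H 287 and 714 372 (0.25 ± 0.04). That window would not have been chosen without 714 or without 714H, so its rise is a description. Levels rose in order of copies at both. Both calls were lost without 714 (0.32 and 0.18), B73 (0.26 and 0.27), id1 (0.27 and 0.26) or id4 (0.25 and 0.24), and the second also without 9d9a (0.26).

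**Figure D5:**
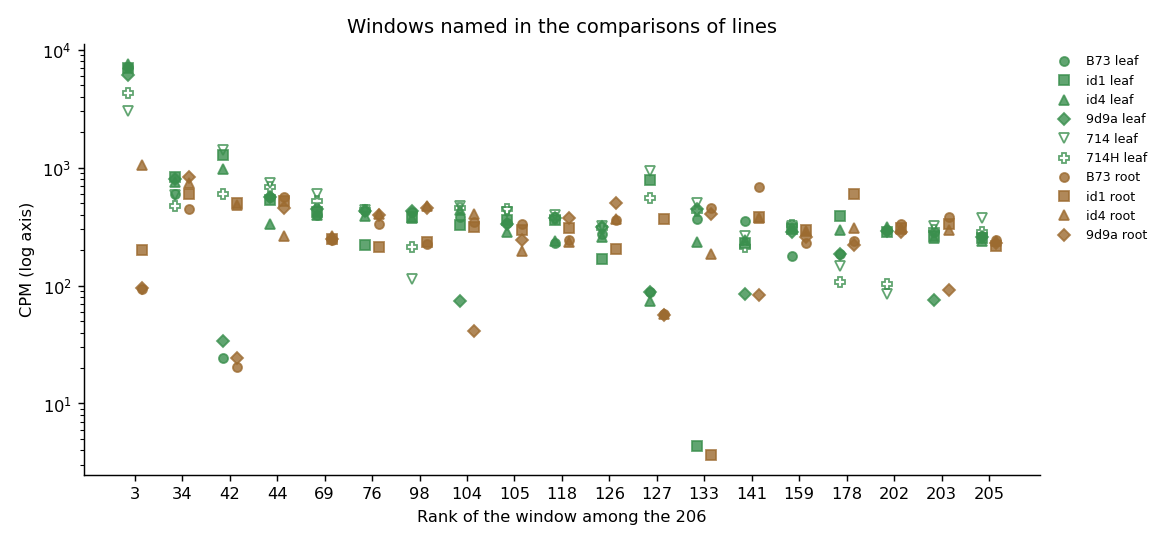
Level in CPM (log axis) of the windows named in the comparisons of lines, ordered by rank among the members, with 1 point per library (leaf in green, root in brown, 1 marker shape per line, 714 and 714H open). At rank 42 (48.1 Mb on chromosome 1) the libraries split between 20.4 to 34.0 CPM and 479 to 1423 CPM, and at rank 133 (79.7 Mb on chromosome 1) both id1 libraries lie under 5 CPM.

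Some members kept a nearly constant ratio to each other over the 10 libraries. Of 21115 pairs, 444 that were over 1 Mb apart or on different chromosomes had an SD of the log2 ratio of counts below 0.1, where the median over all pairs was 0.424. The steadiest pair was 139.5 Mb on chromosome 9 with 165.8 Mb on chromosome 8. Their ratio was 1.57 (1.53 to 1.63 over the libraries), and its SD of 0.0378 was close to the 0.0350 that counting error alone gives. The next were 157.4 Mb on chromosome 7 with 54.7 Mb on chromosome 2 (ratio 1.0, SD 0.0401) and 234.4 Mb on chromosome 4 with 165.8 Mb on chromosome 8 (1.20, 0.0409). They were followed by 45.0 Mb on chromosome 1 with 132.5 Mb on chromosome 10 (1.11, 0.0421) and 135.8 Mb on chromosome 9 with 54.7 Mb on chromosome 2 (1.09, 0.0425). All these windows have means between 261 and 412 CPM, far from the first ranks. Windows of 1 library share its depth and makeup, and windows that vary little between libraries keep a steady ratio in any case. Pairs outside the set were not counted for comparison, and whether such pairs count the same reads was not tested.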

How the data were processed

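Small RNA reads were measured in 6 leaf and 4 root libraries of 14-day-old maize seedlings. The deposited files hold counts, whole-number read totals per 100 kb window, per the file headers and values, and the authors scaled them no further. Per the submitters' processing notes Bowtie was used. The sources used here do not state its settings, the build, which read lengths were kept or how reads with several matches were treated. Reads matched to many places may be counted several times or left out, and a line that differs from the reference may lose reads.

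Unlisted windows were taken as 0 and a position as a window's start. CPM are counts over the file total. Calls came from edgeR 4.0.16 in R 4.3.3 (TMM, default filter, robust quasi-likelihood fits, Benjamini-Hochberg over all windows tested, threshold 0.05), which all 206 windows entered. TMM factors were 0.952 to 1.02. Each SE was computed as the log2 change over the root of its F statistic. Leaf and root of 4 lines were compared over 8 libraries with no term for line (6 residual degrees of freedom). Lines were compared with tissue as a covariate (3), and copies of the 714 allele over 6 leaf libraries (4). Fits were tested on simulated data, and DESeq2 1.42.0 was an alternative.

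Leaf and root of a line share the genotype. Deviations from the tissue mean correlated between them over 17089 windows, with r of 0.70 in B73, 0.85 in id1, 0.63 in id4 and 0.73 in 9d9a, against at most 0.01 between different lines.

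The windows and tests were chosen with earlier results of these data known. Named windows were the 12 with the highest means; the 5 farthest each way between tissues, with 1 direction in all 4 lines; up to 3 each way for each line (1 direction in both tissues) and for the 714 slope (714H between B73 and 714); the 2 on each side of the limit; and the 5 steadiest pairs over 1 Mb apart.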

Additional observations from a re-analysis of the deposited data

Results flagged for a closer look

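In several windows 1 library of a tissue stood far from the others by Dixon's criterion, applied to the levels named above in the 6 leaf and the 4 root libraries. It picked out 7 of 78 such groups. Chance picks out about 1 in 20 groups that were not chosen on their values, but most of these windows were named because a line or tissue differed, so that rate does not apply and the 7 are given as descriptions. With 1 library per line and tissue, a line and a library cannot be told apart where only 1 tissue was high or low.

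In root, id4 had 1058 CPM at 183.5 Mb on chromosome 5 against 93.6 to 201 in the others, and id1 had 366 CPM at 50.1 Mb on chromosome 1 against 55.9 to 57.5. In leaf, id1 was low at 141.5 Mb on chromosome 10, with 219 CPM against 391 to 439. B73 was low in leaf at 289.5 Mb on chromosome 1, with 179 CPM against 285 to 325. The 9d9a library was low in leaf at 234.2 Mb on chromosome 1, with 74.1 CPM against 324 to 473, and at 15.3 Mb on chromosome 7, with 76.0 CPM against 252 to 320. At 7.6 Mb on chromosome 3, 714 was high in leaf, with 372 CPM against 239 to 287.

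At a pair of windows id1, id4 and 9d9a all lay on opposite sides of B73 in leaf and root, and this difference was not tested. At 134.2 Mb on chromosome 9, B73 had 3263 CPM in leaf, above the others, and 744 in root, below them. At 4.3 Mb on chromosome 7, B73 had 388 CPM in leaf, below the others, and 123 in root, above them.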

How the results depend on the processing

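The 43 named differences were recomputed under 380 alternative values. Of the 33 that were called, 7 lost the call under at least 1 alternative and 4 uncalled ones gained it. Uncalled leaf to root differences changed sign at 158.3 Mb on chromosome 8 (0.0037 without id4, -0.16 without B73) and 181.2 Mb on chromosome 1 (0.059 without 9d9a, -0.34 without B73).

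Members called between leaf and root numbered 36 to 54 with 1 line left out (15 to 21 higher in leaf, 21 to 33 in root), against 61. With each line as a replicate block they numbered 83. That fit changed 3 named calls, at 96.1 Mb on chromosome 6, 144.2 Mb on chromosome 10 and 229.9 Mb on chromosome 3 (log2 0.47, adjusted p = 0.0427), and no other.

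In 9d9a the total was 13 in DESeq2 against 6, and the number that rose was 9 in DESeq2, 5 with DESeq2's size factors, 5 with totals outside the members and 4 to 5 with 1 other line left out, against 3. For the 714 slope the total was 32 in DESeq2 against 11 (9 rose, 23 fell), and 3 to 23 with 1 library left out (0 to 6 rose, 3 to 17 fell). None rose without B73, id1 or id4 by edgeR (24, 28 and 25 at an unadjusted p under 0.05; DESeq2 was not run there). The number that rose was 4 with library totals, 1 with members chosen by equal weight of tissues and 1 with members chosen by the median. The cause was not tested. The counts in id1 and id4 stayed within 1.5 times under the alternatives run. Without the most read window the leaf share was 11.9%, and windows 2 steps from a member had 1.80 times the level of the rest. Leaving out a library from the shares was chosen after seeing the data.

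With 1 library per line and tissue, lines stand in for replicates, and the line comparisons have few degrees of freedom. Counting error is small in these windows, so depth limits only the lowest values, such as 14 reads in 9d9a root at 82.4 Mb on chromosome 10.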
